A study of Mus musculus with 11 samples.

Results

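Nucleotide synthesis enzymes were followed in mouse aortic valves 48 hours after surgery. The 9 genes, chosen by symbol among the 46983 genes with deposited counts, were the deoxynucleotide supply genes Rrm1, Rrm2, Tyms, Tk1 and Dut and the de novo pyrimidine genes Cad, Dhodh, Umps and Ctps. All mice were wild type, and each library held the valve of 1 mouse. A wire had been used in living mice to damage the endothelium of the injured valves, and the sham valves came from mice given a mock operation. There were 3 young injured and 3 young sham mice, aged 3 to 4 months, and 2 aging injured and 3 aging sham mice, aged 16 to 18 months.

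A cell needs both ribonucleotides for RNA and deoxyribonucleotides for DNA. Ribonucleotide reductase makes the deoxyribonucleotides, the thymidylate branch turns dUMP into dTMP, and thymidine kinase recovers thymidine. The de novo pyrimidine pathway builds UMP and then CTP, which every cell that makes RNA or sugar nucleotides draws on. In dividing cells Rrm2, Tyms and Tk1 are known for expression that peaks around S phase, whereas adult valve cells mostly rest.

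The labelled tissue could be checked against markers. Col1a1, Pecam1 and the other valve interstitial and endothelial markers were counted in every library, and cardiac muscle transcripts were present throughout. Summed cardiomyocyte markers, 15 genes with none at 0 in any library, ranged from 9125 to 39389 CPM (counts scaled to library size) in young injured, from 21127 to 38418 CPM in young sham, from 12703 to 14575 CPM in aging injured and from 7859 to 22856 CPM in aging sham libraries. The highest of these sums was in young injured 3. Counts were found for 18641 genes in young sham 1, for 18642 and 19015 genes in the aging injured libraries, and for 20411 to 22533 genes in the other 8. Library totals ranged from 27124000 to 36353474 counts. In whole valves, fewer cells of a type and less RNA per cell cannot be told apart.

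The promoters of the 4 supply genes with the highest log2 fold changes after injury in young valves are shown because these genes stood higher together there. Each is the RefSeq window of 300 bases on GRCm38.p6, from 250 before to 50 after the annotated start, read 5′ to 3′ on the gene's strand. Capitals mark matches to any of 4 motifs, the E2F site (TTCCCGC or TTGGCGC), the CCAAT box (CCAAT), the cell cycle element CHR (TTTGAA) and the E-box (CACGTG), each searched on both strands; none of the matches overlapped another.
Rrm1, chr7:102441445-102441744, plus strand: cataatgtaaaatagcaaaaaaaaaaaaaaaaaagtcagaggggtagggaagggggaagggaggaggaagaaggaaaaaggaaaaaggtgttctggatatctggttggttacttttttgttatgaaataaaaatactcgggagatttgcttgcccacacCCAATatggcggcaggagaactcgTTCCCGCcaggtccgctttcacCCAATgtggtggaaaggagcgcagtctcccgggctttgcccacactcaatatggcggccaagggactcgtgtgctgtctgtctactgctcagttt
Rrm2, chr12:24708004-24708303, plus strand: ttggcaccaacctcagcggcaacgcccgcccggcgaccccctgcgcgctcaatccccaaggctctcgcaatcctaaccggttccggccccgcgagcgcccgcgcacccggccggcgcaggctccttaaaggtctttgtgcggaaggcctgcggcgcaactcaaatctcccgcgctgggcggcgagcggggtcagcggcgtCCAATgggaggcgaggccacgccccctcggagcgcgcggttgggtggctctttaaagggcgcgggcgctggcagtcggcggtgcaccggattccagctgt
Tyms, chr5:30073576-30073875, minus strand: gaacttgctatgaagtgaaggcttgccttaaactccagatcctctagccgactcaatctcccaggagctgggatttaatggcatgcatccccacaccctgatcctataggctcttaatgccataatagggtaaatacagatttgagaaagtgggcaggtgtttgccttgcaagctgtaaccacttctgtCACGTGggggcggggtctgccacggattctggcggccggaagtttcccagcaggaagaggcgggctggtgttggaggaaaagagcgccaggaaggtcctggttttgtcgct
Tk1, chr11:117825965-117826264, minus strand: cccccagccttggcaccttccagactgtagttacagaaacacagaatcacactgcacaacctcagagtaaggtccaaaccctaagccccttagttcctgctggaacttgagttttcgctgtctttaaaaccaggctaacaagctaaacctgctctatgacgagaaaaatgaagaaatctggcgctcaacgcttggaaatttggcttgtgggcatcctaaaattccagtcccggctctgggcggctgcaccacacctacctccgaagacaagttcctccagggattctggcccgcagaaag
Rrm1 held an E2F site 67 to 61 bases before its start and CCAAT boxes at 91 to 87 and at 45 to 41 bases. Rrm2 held a CCAAT box at 50 to 46 bases, and Tyms an E-box at 61 to 56 bases. The letters of these motifs are not in the Tk1 window. A promoter window was available for 8 of the 9 members, all but Dhodh. In the windows not printed, the only motif found was a CHR in Umps, 95 to 90 bases before its start. Among the 32851 mouse promoters of the table, 6.81% held the E2F letters, 37.4% the CCAAT letters, 17.9% the CHR letters and 7.15% the E-box letters. The matches are a description of letters and not of binding.

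In young valves, injury raised 2 of the 9 enzymes, Rrm2 by 5.80-fold and Tk1 by 7.94-fold, and both belong to deoxynucleotide supply. Tyms and Rrm1 were higher in every injured library but did not pass both thresholds, which are an adjusted p under 0.1 together with more than a 2-fold difference. No de novo pyrimidine gene passed, and 4 of the 9 members had an unadjusted p under 0.05, as 9.19% of all genes did. Among all 19366 genes tested, 0.418% were called, 0.403% as higher and 0.0155% as lower. All adjusted p-values are from edgeR's quasi-likelihood test with Benjamini-Hochberg adjustment over those genes unless another tool is named.

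**Figure D1:**
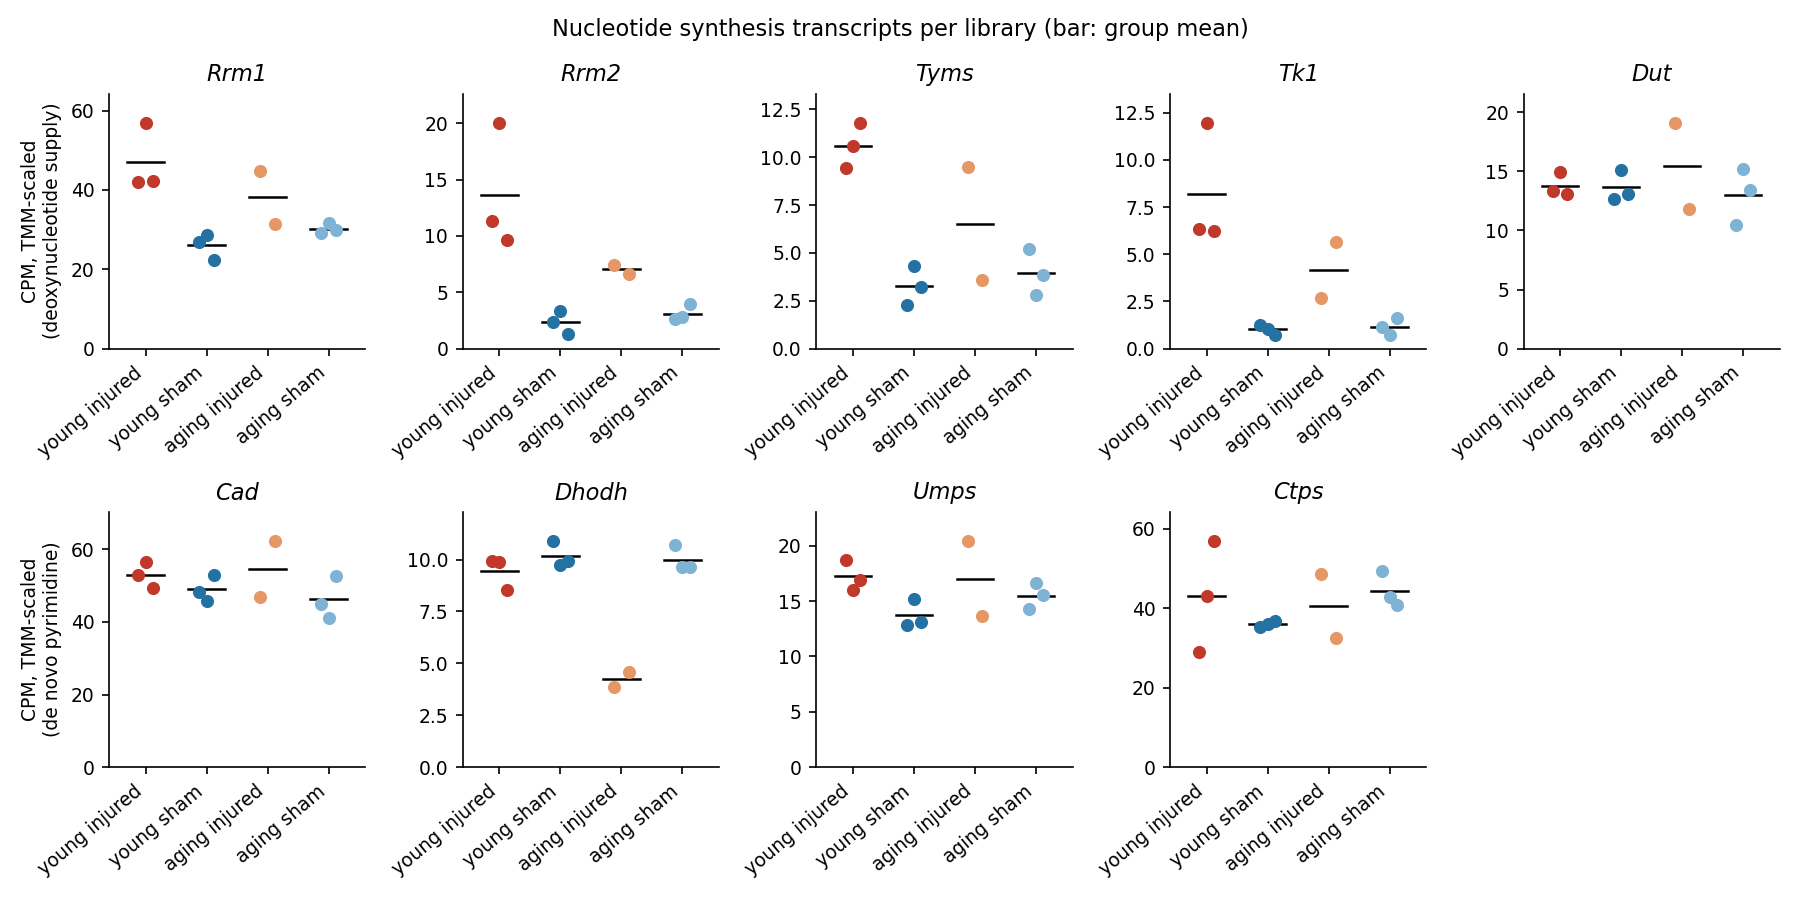
Expression of the 9 enzymes in CPM (TMM-scaled, linear axes from 0), with 1 panel per gene, 1 point per library (3 young injured, 3 young sham, 2 aging injured and 3 aging sham) and a bar at each group mean. Rrm2 and Tk1 lie higher in every injured than in every sham library of the same age, and Dhodh lies lowest in the 2 aging injured libraries.

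Rrm2 encodes the small subunit of ribonucleotide reductase, which carries the radical and is made and destroyed with the cell cycle (ENSMUSG00000020649, chromosome 12, 24708241 to 24714146, plus strand, mm10). Its level was 11.3, 20.0 and 9.68 CPM in young injured libraries, against 2.38, 3.31 and 1.34 CPM in young sham libraries. The lowest injured value was thus well above the highest sham value. The log2 fold change was 2.54 ± 0.38 (SE), with a 95% interval of 1.69 to 3.38 and an adjusted p of 0.0284. In aging valves it stood at 7.39 and 6.66 CPM after injury, against 2.60, 2.78 and 3.96 CPM after sham surgery, again without overlap. There the log2 fold change was 1.18 ± 0.40 with an adjusted p of 0.433. Rrm2 also had the promoter richest in G and C of the 4 printed, at 71.33% against a median of 52.67% over all promoters.

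Rrm1 encodes the large, catalytic subunit of the same enzyme (ENSMUSG00000030978, chromosome 7, 102441695 to 102469771, plus strand). It stood at 41.9, 56.9 and 42.3 CPM in young injured libraries, against 27, 28.7 and 22.4 CPM in young sham libraries. The groups did not overlap, but the fold was 1.81, with a log2 fold change of 0.85 ± 0.18 and an adjusted p of 0.0901. In aging valves, 44.8 and 31.4 CPM after injury stood against 29.1, 31.7 and 29.9 CPM after sham surgery, so 1 of the 2 injured libraries lay among the sham values. The log2 fold change there was 0.33 ± 0.19 (adjusted p = 0.668).

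Since both genes code for parts of 1 enzyme, their levels were set against each other per transcript length, in the authors' RPKM, which scales reads by gene length and by library size. Rrm1 exceeded Rrm2 by 2.57, 1.97 and 3.03 times in young injured libraries, against 7.86, 6.0 and 11.6 times in young sham libraries. In aging valves the RPKM ratio was 4.21 and 3.27 after injury, against 7.77, 7.91 and 5.24 after sham surgery. At both ages the ratio was lower in every injured than in every sham library. The ratio was chosen after the values had been seen and was not tested. Rrm2b, the small subunit used outside S phase, averaged 37.3 ± 4.53 CPM in young injured and 47.4 ± 6.05 CPM in young sham valves (SD, n = 3 each), and its log2 fold change was -0.35 ± 0.14 (adjusted p = 0.455). In aging valves Rrm2b averaged 39.8 ± 1.5 CPM after injury (n = 2) and 42.5 ± 3.06 CPM after sham surgery (n = 3).

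Tk1 encodes the cytosolic thymidine kinase, the salvage enzyme of dividing cells (ENSMUSG00000025574, chromosome 11, 117815526 to 117826092, minus strand). It was read at 6.32, 12 and 6.26 CPM in young injured libraries, against 1.28, 1.04 and 0.749 CPM in young sham libraries. All injured libraries lay far above the sham ones, with a log2 fold change of 2.99 ± 0.47, a 95% interval of 1.96 to 4.02 and an adjusted p of 0.0321. The value in young sham 3 rested on 19 counts, the fewest of any member in any library, whose exact Poisson interval of 95% spans 0.451 to 1.17 CPM and covers counting error only. In aging valves Tk1 stood at 2.70 and 5.64 CPM after injury, against 1.16, 0.709 and 1.63 CPM after sham surgery. These groups did not overlap either, and the log2 fold change was 1.84 ± 0.48 with an adjusted p of 0.361.

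The Tk1 locus overlaps Afmid and Gm20708 on the other strand, and whether the counting used strand is not given in the sources used here. Neither neighbour passed, with log2 fold changes after injury in young valves of -0.06 ± 0.23 for Afmid and 0.15 ± 0.21 for Gm20708. Tk2, the mitochondrial thymidine kinase, averaged 18.0 ± 2.13 CPM in young injured and 20.1 ± 0.744 CPM in young sham valves (n = 3 each), a log2 fold change of -0.16 ± 0.16 (adjusted p = 0.836). In aging valves Tk2 averaged 20.9 ± 0.175 CPM after injury (n = 2) and 20.9 ± 3.69 CPM after sham surgery (n = 3).

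Tyms encodes thymidylate synthase, which methylates dUMP to dTMP (ENSMUSG00000025747, chromosome 5, 30058202 to 30073617, minus strand). Its level was 9.43, 10.6 and 11.8 CPM in young injured libraries, against 2.29, 4.30 and 3.23 CPM in young sham libraries. The groups stood apart, and the fitted difference was 3.24-fold, a log2 fold change of 1.69 ± 0.39 with an adjusted p of 0.123. That p moved to 0.0931 with no filter on low counts, to 0.00356 in DESeq2, to 0.0984 with the cardiomyocyte score as a covariate, and to 0.064 and 0.0589 without aging injured 1 and 2. In aging valves the injured libraries disagreed, at 9.48 and 3.57 CPM, against 5.19, 2.81 and 3.82 CPM in sham libraries. The log2 fold change there was 0.72 ± 0.42 (adjusted p = 0.668), and without aging injured 1 it was -0.15.

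Dut encodes dUTPase, which removes dUTP and yields the dUMP that thymidylate synthase uses (ENSMUSG00000027203, chromosome 2, 125247190 to 125258608, plus strand). It averaged 13.8 ± 1.03 CPM in young injured and 13.7 ± 1.29 CPM in young sham valves (SD, n = 3 each), and the 95% interval of its log2 fold change ran from -0.45 to 0.47. In aging valves it averaged 15.5 ± 5.14 CPM after injury (n = 2) and 13.0 ± 2.37 CPM after sham surgery (n = 3), with an adjusted p of 0.842. Dut was thus the supply gene with the smallest difference in young valves.

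**Figure D2:**
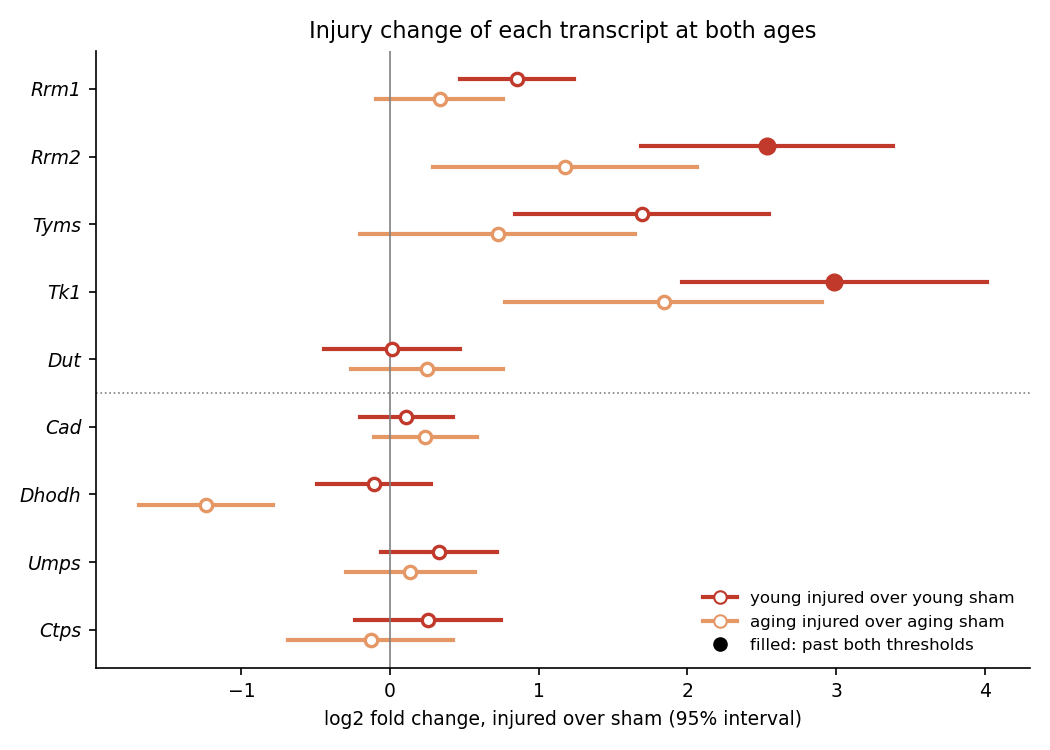
Log2 fold change of each enzyme, injured over sham, in young and in aging valves, with 95% intervals from the edgeR fit, a line at 0 and filled points for genes past both thresholds. The filled points are Rrm2 (2.54) and Tk1 (2.99) in young valves. The unfilled young intervals of Rrm1 (0.47 to 1.24) and Tyms (0.84 to 2.55) also lie above 0. In aging valves the intervals of Rrm2 (0.29 to 2.06) and Tk1 (0.78 to 2.91) lie above 0. The aging interval of Dhodh, from -1.69 to -0.78, lies below 0.

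Among the de novo pyrimidine genes, Cad, Umps and Ctps stayed without a call at both ages. Cad encodes the multifunctional protein that starts the pathway with carbamoyl phosphate synthetase, aspartate transcarbamylase and dihydroorotase (ENSMUSG00000013629, chromosome 5, 31054780 to 31078479, plus strand). Its libraries spanned 49.3 to 56.4 CPM in young injured and 45.9 to 52.9 CPM in young sham valves, and the log2 fold change was 0.11 ± 0.14 (adjusted p = 0.892; 95% interval -0.20 to 0.42). In aging valves Cad stood at 46.9 and 62.2 CPM after injury, against 45.0, 41.1 and 52.7 CPM after sham surgery (adjusted p = 0.729). The Cad groups overlapped at both ages.

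Umps encodes UMP synthase, which converts orotate to UMP (ENSMUSG00000022814, chromosome 16, 33954782 to 33967038, minus strand). It stood at 18.7, 16.0 and 16.9 CPM in young injured libraries, against 12.8, 15.2 and 13.1 CPM in young sham libraries. These groups did not overlap, yet the log2 fold change was only 0.33 ± 0.18 (adjusted p = 0.625). In aging valves Umps averaged 17.0 ± 4.76 CPM after injury (n = 2) and 15.5 ± 1.16 CPM after sham surgery (n = 3), with overlap.

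Ctps encodes CTP synthase, which aminates UTP to CTP (ENSMUSG00000028633, chromosome 4, 120539868 to 120570276, minus strand). The young injured libraries were spread widely, at 28.9, 43.1 and 56.8 CPM, against 35.2, 36 and 36.7 CPM in young sham libraries. The sham values fell inside the injured range, and the log2 fold change was 0.26 ± 0.22 (adjusted p = 0.802). In aging valves Ctps averaged 40.5 ± 11.4 CPM after injury (n = 2) and 44.3 ± 4.47 CPM after sham surgery (n = 3). Its paralogue Ctps2 averaged 31.5 ± 5.21 CPM in young injured and 26 ± 3.08 CPM in young sham valves (n = 3 each), with an adjusted p of 0.704.

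Dhodh was the member that set the aging injured libraries apart. It encodes dihydroorotate dehydrogenase, the step of the pathway that sits in the inner mitochondrial membrane and passes electrons to ubiquinone (ENSMUSG00000031730, chromosome 8, 109591343 to 109608673, minus strand). Aging injured libraries had 3.87 and 4.59 CPM, against 10.7, 9.62 and 9.66 CPM in aging sham libraries. Young injured libraries had 9.91, 9.89 and 8.52 CPM, against 10.9, 9.73 and 9.94 CPM in young sham libraries. Both aging injured values lay below the whole range of 8.52 to 10.9 CPM in the other 9 libraries. How many of all genes tested did the same was not counted. In aging injured libraries 16.7% of all genes were lower without overlap than in aging sham libraries. Against young injured libraries the share was 14.5%.

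In the fit, the difference for Dhodh after injury in aging valves was -1.24 ± 0.21 on the log2 scale, 0.424 times the sham level, with an unadjusted p of 8.42e-05 and an adjusted p of 0.258. It was called in DESeq2 (adjusted p = 1.2e-05) and without aging injured 1 (adjusted p = 0.0745). In young valves its log2 fold change was -0.11 ± 0.18. The interaction, aging minus young, was -1.13 ± 0.27 with an adjusted p of 0.446 in edgeR and 0.0223 in DESeq2.

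The aging injured libraries shared other properties. Both had few detected genes, and young sham 1, with as few, had 10.9 CPM of Dhodh. Both were also high in Xist, a marker of female cells, at 429 and 494 CPM. The other groups were mixed, with Xist at 0.483 to 630 CPM in young injured, 0.435 to 485 CPM in young sham and 0.856 to 509 CPM in aging sham libraries. The 5 other libraries with Xist above 5 CPM had 8.52 to 9.94 CPM of Dhodh. No fit took Xist into account. Zfp442 had 0 and 1 counts in the aging injured libraries, against 38 to 94 counts in the other 9. It was picked as the gene with the profile most like that of Dhodh in the ranking given below. Its low counts in the aging injured libraries are therefore not an independent observation. The 15 respiratory chain genes, chosen as other parts of the inner membrane, summed to 3678 to 3896 CPM in aging injured and 2870 to 4559 CPM in aging sham libraries, and their median log2 fold change was 0.13. With the number of detected genes as a covariate, edgeR called 0 members and 0 genes for injury in aging valves. Both counts were also 0 in the main fit, so they cannot show the part of detected genes in the Dhodh result. The part of the other properties was not tested. The labels call every mouse wild type and name no strain. Whether the 2 aging injured mice had the same genetic background as the others is therefore not known from them. For Dhodh, injury and anything else that the 2 aging injured mice shared cannot be told apart.

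For injury in aging valves as a whole, edgeR called 0 of the 9 members and 0 of the 19366 genes, a background of 0%. At an unadjusted p under 0.05 there were 3 members, Rrm2, Tk1 and Dhodh, among 1710 genes (8.83%). DESeq2 called 2 members, Tk1 (adjusted p = 0.0355) and Dhodh, among 329 genes, and limma-voom called 0 members and 0 genes. Without aging injured 1, edgeR also called these 2 members (adjusted p of 0.0827 for Tk1), among 292 genes, 52 of them higher and 240 lower.

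Groups that do not overlap can be counted beside the share of all genes tested that behave alike. In young valves 5 members were higher in every injured than in every sham library, Rrm1, Rrm2, Tyms, Tk1 and Umps, where 9.54% of all genes did the same, and no member was lower, where 5.07% were. In aging valves Rrm2 and Tk1 were higher (11.1% of all genes) and Dhodh was lower (16.7%). Rrm2 and Tk1 were the 2 of 9 members that were higher without overlap at both ages, where 2.41% of all genes were, and no member was lower at both (0.966%).

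Averaged over age, Rrm2 rose by 3.62-fold and Tk1 by 5.33-fold, with log2 fold changes of 1.86 ± 0.28 (adjusted p = 0.0226) and 2.41 ± 0.33 (adjusted p = 0.0157). The background in this comparison was 0.594% called, 0.434% as higher and 0.160% as lower, and 5 members had an unadjusted p under 0.05 (11.5% of all genes). Rrm1 and Dhodh had adjusted p-values of 0.088 and 0.0718 there but folds under 2, with log2 fold changes of 0.59 ± 0.13 and -0.67 ± 0.13. With the number of detected genes as a covariate, Rrm2 and Tk1 had log2 fold changes of 1.92 and 2.26, close to those above, but both had an adjusted p of 0.249 and no member was called among 3 genes. The mean over ages describes Dhodh poorly, since its values were near the young sham level in young injured libraries.

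The difference in response between ages was tested as the interaction, aging minus young. It was -1.36 ± 0.56 on the log2 scale for Rrm2 (adjusted p = 0.595), -1.15 ± 0.67 for Tk1 (0.73), -0.97 ± 0.58 for Tyms (0.731) and -0.52 ± 0.26 for Rrm1 (0.683). All 4 estimates were below 0, and none passed. These 4 are the supply genes with the highest log2 fold changes in young valves, which the interaction subtracts. That choice favours values below 0, so their shared sign does not show a weaker response with age. Of the other members, Dut (0.23) and Cad (0.13) were above 0, and Dhodh (-1.13), Ctps (-0.39) and Umps (-0.19) below it. In edgeR 0 of 9 members and 0 genes were called (0%), with 2 members and 1523 genes (7.86%) at an unadjusted p under 0.05, and DESeq2 called 1 member, Dhodh, and 174 genes, while limma-voom called 0 members. The 95% interval for Rrm2 ran from -2.58 to -0.14 before any adjustment over genes.

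Sham valves were compared between ages to read the enzymes without injury. There, aging over young, the members' log2 fold changes ran from -0.08 for Cad to 0.40 for Rrm2, and edgeR called 0 of 9, where 0.0258% of all genes were called, 0.0207% as higher and 0.00516% as lower. No member had an unadjusted p under 0.05 there, where 9.19% of all genes did, and neither DESeq2 nor limma-voom called any. Aging sham libraries lay above young sham libraries without overlap for Rrm1 and Ctps (11.8% of all genes), and below them for no member (9.08%).

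In injured valves, aging over young, Rrm2 differed by -0.96 ± 0.41 (adjusted p = 0.383), Tk1 by -0.97 ± 0.49 (adjusted p = 0.452) and Dhodh by -1.16 ± 0.21 (adjusted p = 0.105). All 3 were lower in every aging than in every young injured library, where 14.5% of all genes were, and no member was higher (9.89%). In this comparison 0 of 9 members were called by edgeR (background 0.0620%, of which 0.0465% higher and 0.0155% lower), 2 had an unadjusted p under 0.05 (12.5% of all genes), limma-voom called 0 and DESeq2 called Dhodh among 599 genes. Dhodh was also called without young sham 1, aging injured 1 or aging injured 2 (adjusted p of 0.0988, 0.0727 and 0.0933), settings that called 41, 452 and 131 genes against 12 with all libraries.

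The branches were compared within each library as the mean centred log2 CPM of the 5 supply genes minus that of the 4 pyrimidine genes. This difference was 0.73, 1.12 and 0.61 in young injured libraries, against -0.65, -0.37 and -0.92 in young sham libraries. It was 0.65 and 0.44 in aging injured libraries, against -0.58, -0.67 and -0.35 in aging sham libraries. Supply stood above pyrimidine synthesis, relative to the average library, in every injured library and in no sham library.

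In young valves most of this difference lay in the supply branch. Its score was 0.75, 1.25 and 0.76 in young injured libraries, against -0.69, -0.40 and -0.94 in young sham libraries, whereas the pyrimidine score stayed between -0.04 and 0.15 in those 6. In aging injured libraries the pyrimidine score was -0.14 and -0.27, against 0.09, 0.02 and 0.07 in aging sham libraries, and Dhodh is 1 of its 4 genes. The members were chosen with these values known, so no p is given for either score.

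**Figure D3:**
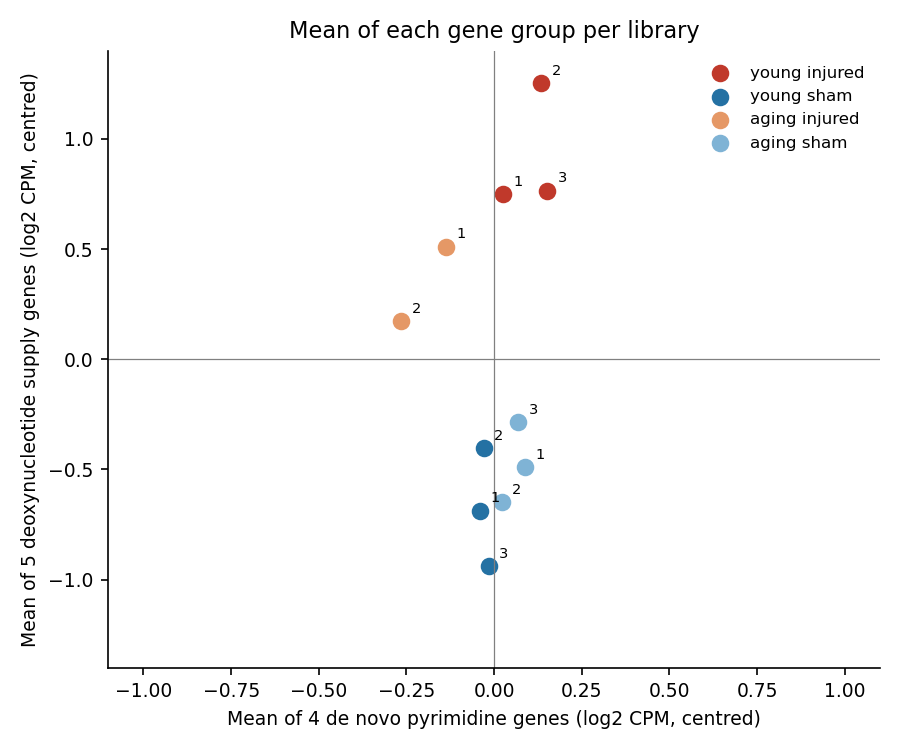
Mean centred log2 CPM of the 5 supply genes (vertical) against that of the 4 pyrimidine genes (horizontal), 1 point per library, numbered by replicate. Injured libraries lie above 0 on the vertical axis and sham libraries below it, and the 2 aging injured libraries lie farthest left, at -0.14 and -0.27.

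Per transcript length the order of levels was different from the order of changes. By median RPKM over the 11 libraries, Ctps (13.8) stood first, then Rrm1 (8.49), Cad (6.60), Dut (6.27), Umps (5.0), Dhodh (1.72), Rrm2 (1.61), Tyms (0.781) and Tk1 (0.352). Umps, at 3.92 to 6.55 RPKM, and Dhodh, at 0.685 to 1.88 RPKM, did not overlap in range over the libraries. The ranges of all other neighbours in this order overlapped, such as Ctps at 10.1 to 18.8 RPKM and Rrm1 at 6.15 to 16.2 RPKM. Rrm2 moved most, between rank 3 and rank 8, with 0.530 to 8.21 RPKM. Both genes that rose after injury in young valves were thus among the 3 lowest by median level.

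**Figure D4:**
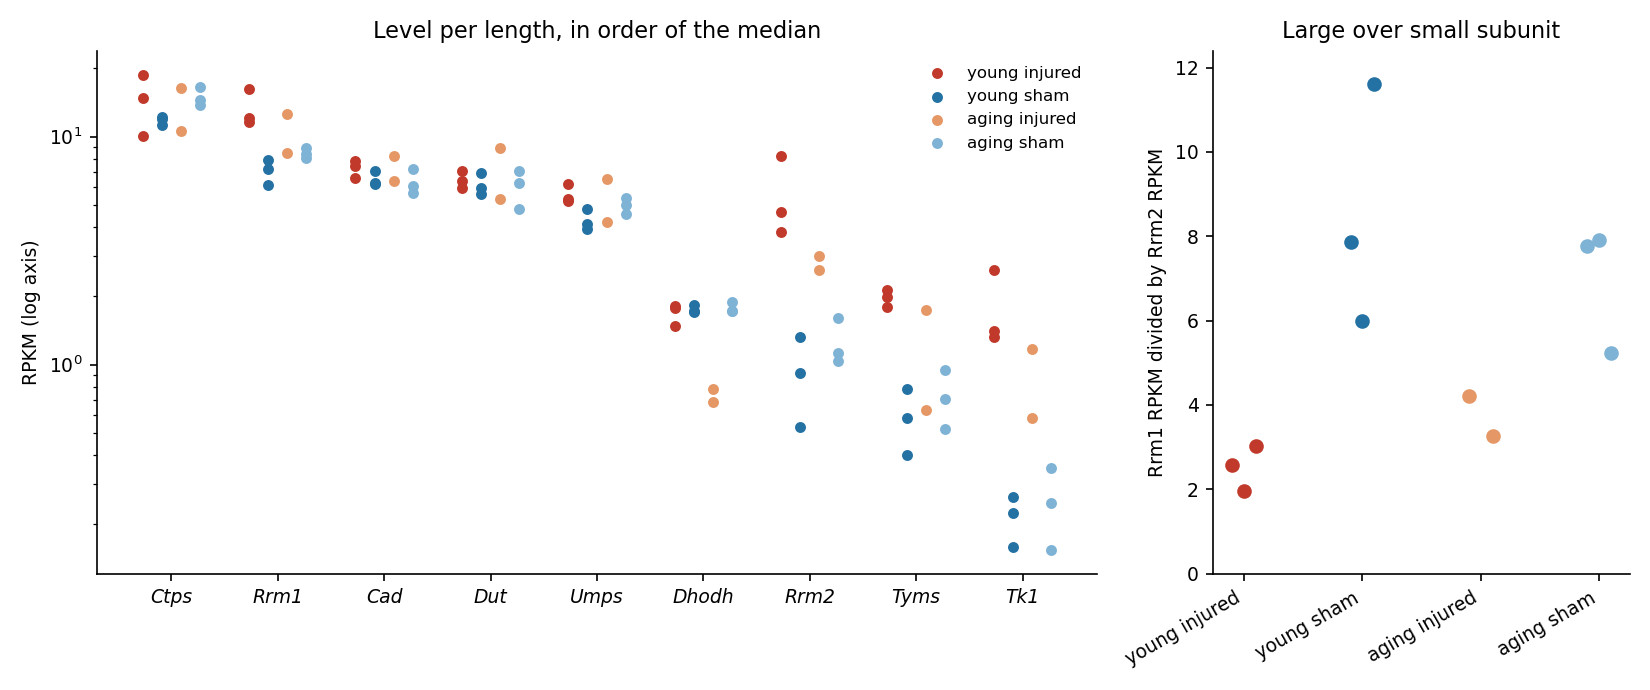
Left, deposited RPKM of the 9 enzymes in each library on a log axis, in order of the median, with points coloured by group; right, Rrm1 RPKM divided by Rrm2 RPKM in each library on a linear axis from 0. Tk1 is lowest by median (0.352 RPKM), and the ratio is 1.97 to 4.21 in injured and 5.24 to 11.6 in sham libraries.

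Neighbouring pathways were read from lists of their enzymes. Of 14 other deoxynucleotide enzymes, edgeR called 0 at either age. At an unadjusted p under 0.05 there were 3 in young and 2 in aging valves, where 9.19% and 8.83% of all genes were. DESeq2 called 0 of them in young and 1 in aging valves, among 268 and 329 genes in all, and limma-voom called 0 at both ages. The median log2 fold change of the 14 enzymes after injury was 0.02 in young and 0.10 in aging valves, beside 0.01 and -0.01 for all genes tested. Nme1, a nucleoside diphosphate kinase, had a log2 fold change of 0.71 ± 0.15 in young valves, a fold of 1.64 with an adjusted p of 0.0917. Dck, deoxycytidine kinase, had 0.85 ± 0.33 in young (adjusted p = 0.452) and 1.02 ± 0.37 in aging valves (adjusted p = 0.456).

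Nme4, the mitochondrial nucleoside diphosphate kinase, averaged 7.81 ± 0.243 CPM in aging injured (n = 2) and 2.61 ± 0.446 CPM in aging sham valves (n = 3), a log2 fold change of 1.58 ± 0.33 with an adjusted p of 0.259. In young valves its log2 fold change was -0.28. As with Dhodh, and with the same limits, its values stood apart in the aging injured libraries, at 7.64 and 7.98 CPM against 1.78 to 3.25 CPM in the other 9.

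The 14 tested genes of pyrimidine salvage and breakdown had median log2 fold changes of 0.12 in young and 0.07 in aging valves, and the 16 purine genes 0.05 and 0.02. The 13 folate enzymes, which supply the carbon for thymidylate and purines, had 0.20 and 0.09. In edgeR, DESeq2 and limma-voom 0 genes of these 3 lists were called at either age. At an unadjusted p under 0.05 there were 1, 2 and 0 genes in young and 1, 1 and 0 genes in aging valves. Of all genes 9.19% and 8.83% were.

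The replication fork list, whose products use deoxynucleotides, had a median log2 fold change of 0.88 after injury in young and 0.35 in aging valves. All 30 genes were above 0 in young and 24 in aging valves, where the medians of all genes tested were 0.01 and -0.01. In young valves 5 of 30 rose, the helicase subunits Mcm2, Mcm3, Mcm5 and Mcm7 and the ligase Lig1, and none fell, where 0.403% of all genes rose. At an unadjusted p under 0.05 there were 19 of the 30, where 9.19% of all genes were. DESeq2 called 11 of them among 268 genes in all, and limma-voom 3 among 56. Mcm5 averaged 21.1 ± 8.72 CPM in injured and 5.17 ± 1.18 CPM in sham valves (SD, n = 3 each), 4.07-fold with an adjusted p of 0.0216. In aging valves edgeR called 0 of 30, with 8 at an unadjusted p under 0.05 (8.83% of all genes). There DESeq2 called 1 of the 30 among 329 genes in all, and limma-voom 0. Pole, the catalytic subunit of DNA polymerase epsilon, averaged 9.31 ± 0.763 CPM in aging injured (n = 2) and 2.76 ± 0.866 CPM in aging sham valves (n = 3), with an adjusted p of 0.259.

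**Figure D5:**
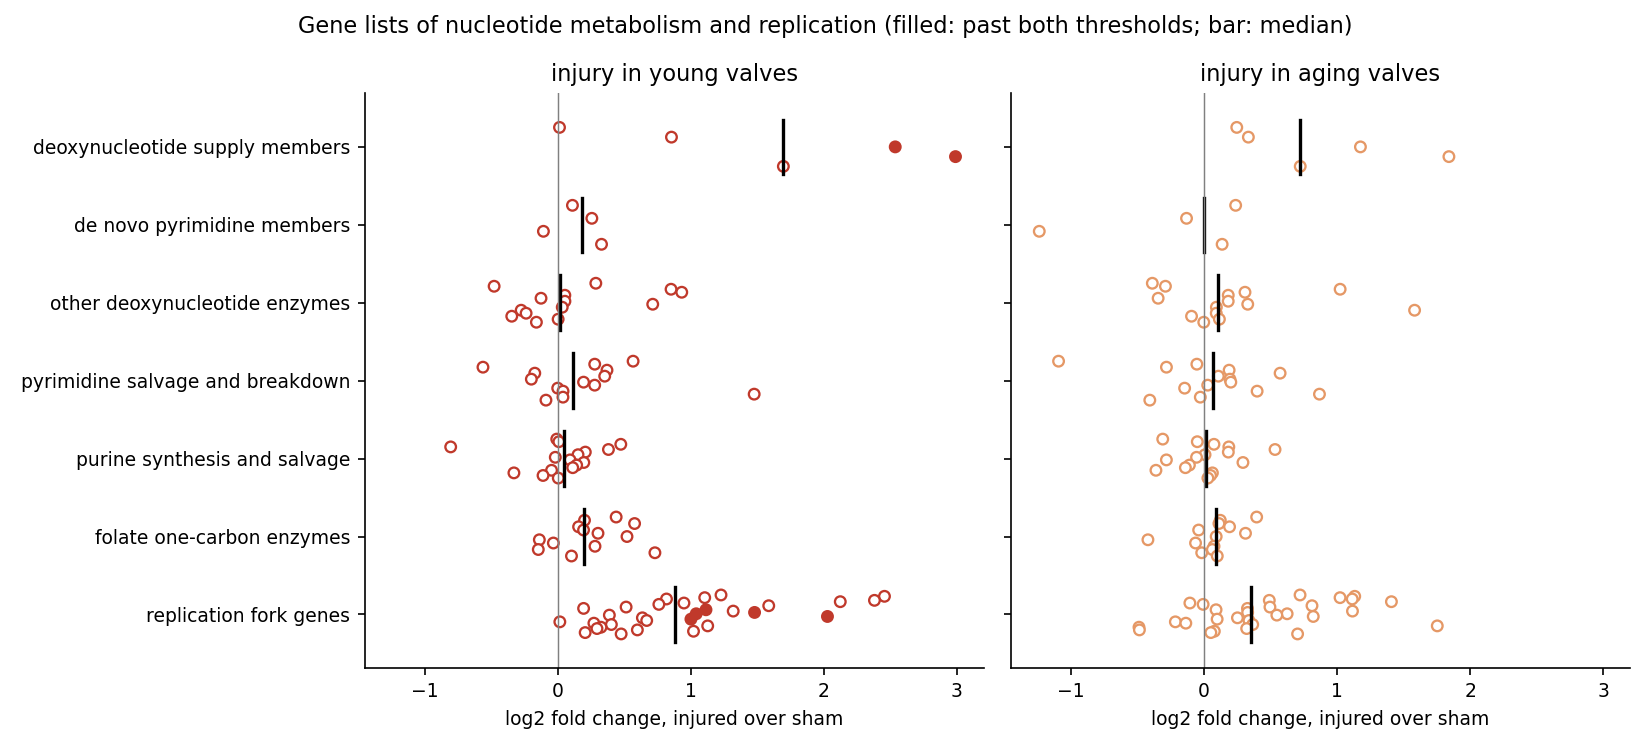
Log2 fold changes, injured over sham, in young (left) and aging valves (right) for the members and for lists of related genes, with 1 point per gene, filled where past both thresholds, and a bar at each median. The supply members and the replication fork list have the highest medians in young valves, 1.69 and 0.88, and no point is filled in aging valves.

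Marker sums of other cell types were read beside these results. The 10 macrophage markers matched 11 tested genes by symbol. These summed to 570 to 1022 CPM in young injured and 530 to 700 CPM in young sham libraries. In aging valves they summed to 879 to 910 CPM after injury and 582 to 828 CPM after sham surgery. Valve interstitial markers, 11 genes, summed to 20388 to 24888 CPM in young injured, 15047 to 18252 CPM in young sham, 16358 to 18822 CPM in aging injured and 14256 to 16715 CPM in aging sham libraries. Among these markers edgeR called Vcan and Col3a1, of the interstitial list, as higher after injury in young valves, where 0.403% of all genes were. It called 0 of the others there and 0 in aging valves. Averaged over age it called Cd68, of the macrophage list, as higher, where 0.434% of all genes were. All 11 macrophage genes had log2 fold changes above 0 after injury in young valves (median 0.84), and 9 did in aging valves (median 0.26). The part of cell makeup in the Rrm2 and Tk1 results was not tested beyond a fit with the cardiomyocyte score as a covariate. In young valves that fit called 3 members among 71 genes, 65 of them higher and 6 lower. The main fit called 2 members among 81 genes.

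The profiles most like those of the members were ranked by Pearson's r of log2 CPM over the 11 libraries, which share the group differences. The ranking took the 19366 genes tested but left out symbols of Gm plus digits or ending in Rik. Nearest to Rrm2 were Mastl (r = 0.980), Ccnf (0.972) and Uhrf1 (0.969), and nearest to Tk1 were Uhrf1 (0.977), Prr11 (0.975) and Prc1 (0.969). Mastl (0.969) and Ndc80 (0.969) also led for Rrm1, whereas Jakmip2 and Col8a1 (0.921 each) led for Tyms. For the pyrimidine genes the leaders were Tex264 for Cad (0.946), Zfp442 for Dhodh (0.964), Snord49a for Umps (0.914) and AA474408 for Ctps (0.927). Dut had the weakest leader of the supply genes, F2rl3 at 0.878. Mastl and Uhrf1 were the leading genes that supply members had in common, and no pyrimidine member shared its leader with another.

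The calls of Rrm2 and Tk1 in young valves rested on few mice. When young injured 2 was left out, which had the highest level of both, their log2 fold changes were 2.14 and 2.60 and their adjusted p-values 0.130 and 0.154. The call of Rrm2 was also lost without young sham 1, at a log2 fold change of 2.54 (adjusted p = 0.101). That of Tk1 was lost without young sham 2, at 3.00 (adjusted p = 0.192), and without young sham 3, at 2.81 (adjusted p = 0.110). When only the 6 young libraries were fitted they were 0.168 and 0.112, with log2 fold changes of 2.53 and 2.98.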

How the data were processed

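Total RNA of single frozen valves was made into mRNA libraries and sequenced with paired reads, per the labels' protocols. The submitters' processing notes list TopHat2 2.1.0 and mm10. How reads were counted per gene, and with which gene models or strand setting, is not given in the sources used here. The authors deposited raw counts for 46983 genes and RPKM values for 13526 genes, both used as deposited, and 1 library column per file matched no sample label and was not used. Members and lists were chosen with earlier results of these data known. Named genes were the members, their paralogues, the genes called or with the 3 smallest p-values per list, and the 3 nearest profiles per member.

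Genes passing filterByExpr (minimum count 10), 19366 in all, were fitted with edgeR 4.0.16 in R 4.3.3 with TMM scaling, 4 group means and all 11 libraries sharing the spread (common biological coefficient of variation 0.377). A call, and the words rose and fell, need an adjusted p under 0.1 and a fold over 2, the thresholds of the series' design text. SE is the log2 fold change over the square root of F, and log2 CPM for scores used a prior count of 2. The scripts were tested on simulated data. Alternatives were DESeq2 1.42.0 and its size factors, limma-voom (limma 3.58.1), no filter, the samples of a contrast alone, a replicate block, cardiomyocyte score or detected genes as covariates, no mitochondrial genes, and each library left out. Libraries of a group differed beyond sampling noise, with a chi-square per degree of freedom of 20.9 to 228 over 10 pairs. Member counts per library ran from 19 to 2128.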

Additional observations from a re-analysis of the deposited data

How the results depend on the processing

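Scaling by DESeq2 size factors and leaving out mitochondrial genes changed no call of a member, and supply minus pyrimidine kept its sign after injury under each alternative, between 1.32 and 1.6 without 1 library in young and between 0.97 and 1.18 in aging valves; with age in sham valves it ran from -0.024 to 0.25. Genes called were, for injury in young valves (81), 268 in DESeq2 and 15 with the samples of the contrast alone (0 members); for injury in aging valves (0), 1 with no filter and 329 in DESeq2 (2 members); averaged over age (115), 402 in DESeq2, 73 in limma-voom, 60 with the replicate block and 3 with detected genes as a covariate (0 members). For age in sham valves (5) they were 14 with no filter, 200 in DESeq2, 2 in limma-voom, 16 with the samples of the contrast alone, 2 with the cardiomyocyte covariate and 0 with detected genes. For age in injured valves (12) they were 38 with no filter, 599 in DESeq2 (1 member), 0 with the samples of the contrast alone, 4 with the replicate block and 0 with detected genes. For the interaction (0), DESeq2 called 174 (1 member). The replicate block gave 55 genes and 2 members in young valves. Replicate numbers were not taken to pair samples in the main fit. Of 15 pairs with the same number, 1 had a correlation of deviations over 0.1, young injured 3 with young sham 3 (r = 0.245). Of the 11 libraries, 1 was best correlated with its own number. Many of these pairs join young with aging mice and the groups are small, so this cannot show that no samples were paired.

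Without 1 library each, genes called ran from 16 (without young injured 2) to 447 (without young injured 3) in young valves, with 0 to 3 members; leaving out young sham 1, 2 or 3 gave 46, 20 or 48, and leaving out aging sham 2 or 3 gave 48 or 52. They ran from 0 to 292 (without aging injured 1) in aging valves, with 0 to 2 members, from 38 to 303 averaged over age, with 2 to 3 members, from 1 to 10 for age in sham valves, and from 3 to 452 for age in injured valves, with 0 to 1 members. Small log2 fold changes turned sign. Dut in young valves was -0.0028 by DESeq2 size factors, -0.0029 in DESeq2, -0.0032 without mitochondrial genes, -0.11 with the cardiomyocyte covariate and -0.019 with detected genes, where size factors and leaving out mitochondrial genes shifted the median of all genes by -0.016 and -0.014. With detected genes, Tyms (-0.10) and Dhodh (0.050) turned for age in sham valves, Cad (-0.0067) and Umps (0.15) for age in injured valves, and Umps (0.10) for the interaction; Ctps was 0.00021 with the cardiomyocyte covariate for age in injured valves. Without 1 library each, ranges that crossed 0 were -0.063 to 0.092 (Dut, young), -0.14 to 0.55 (Dut), -0.15 to 1.26 (Tyms), -0.18 to 0.40 (Umps) and -0.45 to 0.13 (Ctps) in aging valves; -0.066 to 0.28 (Dut) and -0.10 to 0.19 (Ctps) averaged over age; -0.19 to 0.068 (Dut), -0.078 to 0.024 (Dhodh) and -0.13 to 0.43 (Tk1) for age in sham valves; -0.22 to 0.47 (Dut), -0.17 to 0.23 (Cad), -0.34 to 0.24 (Umps) and -0.41 to 0.18 (Ctps) for age in injured valves; and -0.14 to 0.54 (Dut), -0.090 to 0.32 (Cad) and -0.50 to 0.069 (Umps) for the interaction. The cause of these differences was not tested. Aging injured valves had 2 mice, so a lone library there was assumed to vary like the other groups.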
